A study of Mus musculus with 7 samples.

Results

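The 9 genes described here encode sensors of foreign or misplaced nucleic acid, the adaptors they signal through and the transcription factors at the end of the pathway. They were taken by symbol (Ifih1, Ddx58, Dhx58, Tlr3, Zbp1, Mavs, Tmem173, Irf3 and Irf7) and not by a cutoff on their values. Earlier results of these data were known when they were chosen. All 9 were listed among the 23955 gene names of the count table, and all 9 passed the filter on low counts, as did 13768 genes in all. RNA was measured in 7 mouse esophageal epithelial cell lines of mixed strain background, cultured on plastic in keratinocyte serum-free medium (KSFM): 2 wild-type lines (WT 1 and 2), 3 lines with the p53R172H missense mutation (mutant 1, 2 and 3) and 2 p53 -/- lines (null 1 and 3). The mutant and null lines also had 4NQO, the short name of the carcinogen 4-nitroquinoline 1-oxide, as their treatment label and the WT lines had no treatment label, so p53 genotype and 4NQO cannot be told apart in any comparison with WT. The labels give neither the age nor the number of mice behind the lines. Whether lines of a group share an animal is not stated, and a p-value here reflects only how far these cell lines vary.

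Cells detect viral or self nucleic acid through sensors in the cytosol and in endosomes. Ddx58 (RIG-I) and Ifih1 (MDA5) are helicases that bind double-stranded RNA and signal through Mavs, an adaptor on mitochondria. Dhx58 (LGP2) is a related helicase without the signalling domains, Tlr3 senses double-stranded RNA in endosomes, Tmem173 (STING) relays the signal of the DNA sensor cGAS, and Zbp1 binds Z-form nucleic acid and can trigger necroptosis. The signals meet at Irf3, which is made constitutively, and Irf7, which is itself induced by interferon. In most epithelia several of these genes are also interferon-stimulated.

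The start regions of the RNA sensors are shown first, since the interferon-stimulated response element (ISRE) is the motif through which interferon raises many of these genes. RefSeq windows (build GRCm38.p6) running from 250 bases before to 50 bases after the annotated start were matched by symbol for 6 of the 9 genes. An ISRE core, spelled GAAANNGAAA and searched on both strands, was in 2 of the 6. In Ifih1 it lay at bases 33 to 42 after the start, and in Ddx58 on the opposite strand at bases 3 to 12 after the start. Of 32851 windows of this length, 3.44% held the core. The Tlr3 window held a match to the NF-kB motif from base -211 to -202, found in 4.51% of windows. The windows of Mavs, Irf3 and Irf7 held none of the 4 motifs searched, which included the interferon-gamma motif TTCNNNGAA (8.3% of windows) and the p53 half-site (8.36%). No 2 matches overlapped. A match is a description of the letters and not evidence of a bound site. Capitals mark the ISRE core in the first pair of sequences and the NF-kB match in the third, and the window of the adaptor Mavs is given as the gene whose level varied least.

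Ifih1, chr2:62646206-62646505, minus strand: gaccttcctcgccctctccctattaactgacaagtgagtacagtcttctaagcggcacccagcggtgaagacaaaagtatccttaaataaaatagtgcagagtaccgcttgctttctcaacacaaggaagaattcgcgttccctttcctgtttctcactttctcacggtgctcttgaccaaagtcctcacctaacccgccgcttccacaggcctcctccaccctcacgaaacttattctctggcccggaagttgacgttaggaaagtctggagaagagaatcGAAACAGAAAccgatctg

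Ddx58, chr4:40239776-40240075, minus strand: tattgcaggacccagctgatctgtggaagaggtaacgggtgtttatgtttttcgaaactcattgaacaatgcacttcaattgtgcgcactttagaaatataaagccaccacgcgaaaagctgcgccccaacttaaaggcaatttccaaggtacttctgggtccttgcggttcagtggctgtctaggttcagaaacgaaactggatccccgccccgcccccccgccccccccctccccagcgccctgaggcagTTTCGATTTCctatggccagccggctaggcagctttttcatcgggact

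Tlr3, chr8:45410331-45410630, minus strand: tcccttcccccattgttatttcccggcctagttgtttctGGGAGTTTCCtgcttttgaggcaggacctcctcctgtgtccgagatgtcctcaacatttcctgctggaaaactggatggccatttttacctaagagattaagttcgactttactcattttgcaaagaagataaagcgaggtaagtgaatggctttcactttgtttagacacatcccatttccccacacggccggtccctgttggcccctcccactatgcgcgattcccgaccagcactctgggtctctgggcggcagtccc

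Mavs, chr2:131233813-131234112, plus strand: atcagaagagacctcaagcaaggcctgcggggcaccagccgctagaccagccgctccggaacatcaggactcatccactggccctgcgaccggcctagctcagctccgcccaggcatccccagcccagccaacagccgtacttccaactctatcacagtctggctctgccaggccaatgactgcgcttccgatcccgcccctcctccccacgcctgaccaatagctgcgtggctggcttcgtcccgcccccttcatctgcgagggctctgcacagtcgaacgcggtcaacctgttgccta

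The libraries held 12751118 (WT 2) to 47000225 (mutant 1) counts. Trp53 was at 172 to 254 CPM in the WT and mutant lines and at 8.73 and 4.71 CPM in null 1 and null 3, the lines labelled p53 -/-; gene counts do not show the missense allele. With a 33.5-fold ratio of means, Trp53 itself had an adjusted p of 0.0555 in mutant against null. Krt5, Krt14, Trp63 and Sox2, which mark squamous basal epithelium, and the epithelial genes Cdh1 and Epcam were detected in every line. All 8 epithelial markers summed to 26981 and 37529 CPM in WT and 5835 to 9859 CPM in the other lines. Krt5 or Krt14 was the largest part of that sum in every line, and other markers differed from it. Mean Trp63 was 346, 345 and 236 CPM in WT, mutant and null lines, mean Sox2 52.5, 87.5 and 26.1 CPM, and mean Cdh1 811, 403 and 752 CPM. In each comparison with WT, 1 of the 8 had a log2 fold change above 0. Krt4 was at 0 counts in mutant 2. Ptprc, the pan-leukocyte marker, had at most 2 counts in any library, and 10 of 12 immune markers did not pass the filter. Cd68 stood at 22.5 to 91.8 CPM and made up nearly all of the immune sum. Endothelial markers summed to 0.408 to 2.05 CPM. Fibroblast markers summed to 567, 376 and 420 CPM in mutant 1, mutant 3 and null 3 but to 5.61 to 9.73 CPM in the other lines. Collagens were the largest part of the high sums, Col1a2 in mutant 1 (326 CPM) and Col3a1 in mutant 3 and null 3 (183 and 276 CPM). Pdgfrb was also higher in mutant 1, mutant 3 and null 3 (24.3, 17.1 and 60.0 CPM, against at most 0.152 CPM). Lum had at most 1 count in any library, Thy1 was at most 0.494 CPM, and Col1a2 was at 1.51 CPM in mutant 3. Of 5 muscle markers, Myog was at 29.0 CPM in null 3 and at most 0.122 CPM elsewhere, and Des at 26.0 CPM and at most 0.568 CPM. Acta1 did not set null 3 apart, at 23.4 CPM there and 12.4 and 22.2 CPM in WT 1 and 2. Myh11 and Cnn1 stayed at or below 0.683 CPM in every line. In such bulk samples fewer cells of a type and less RNA per cell cannot be told apart.

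**Figure D1:**
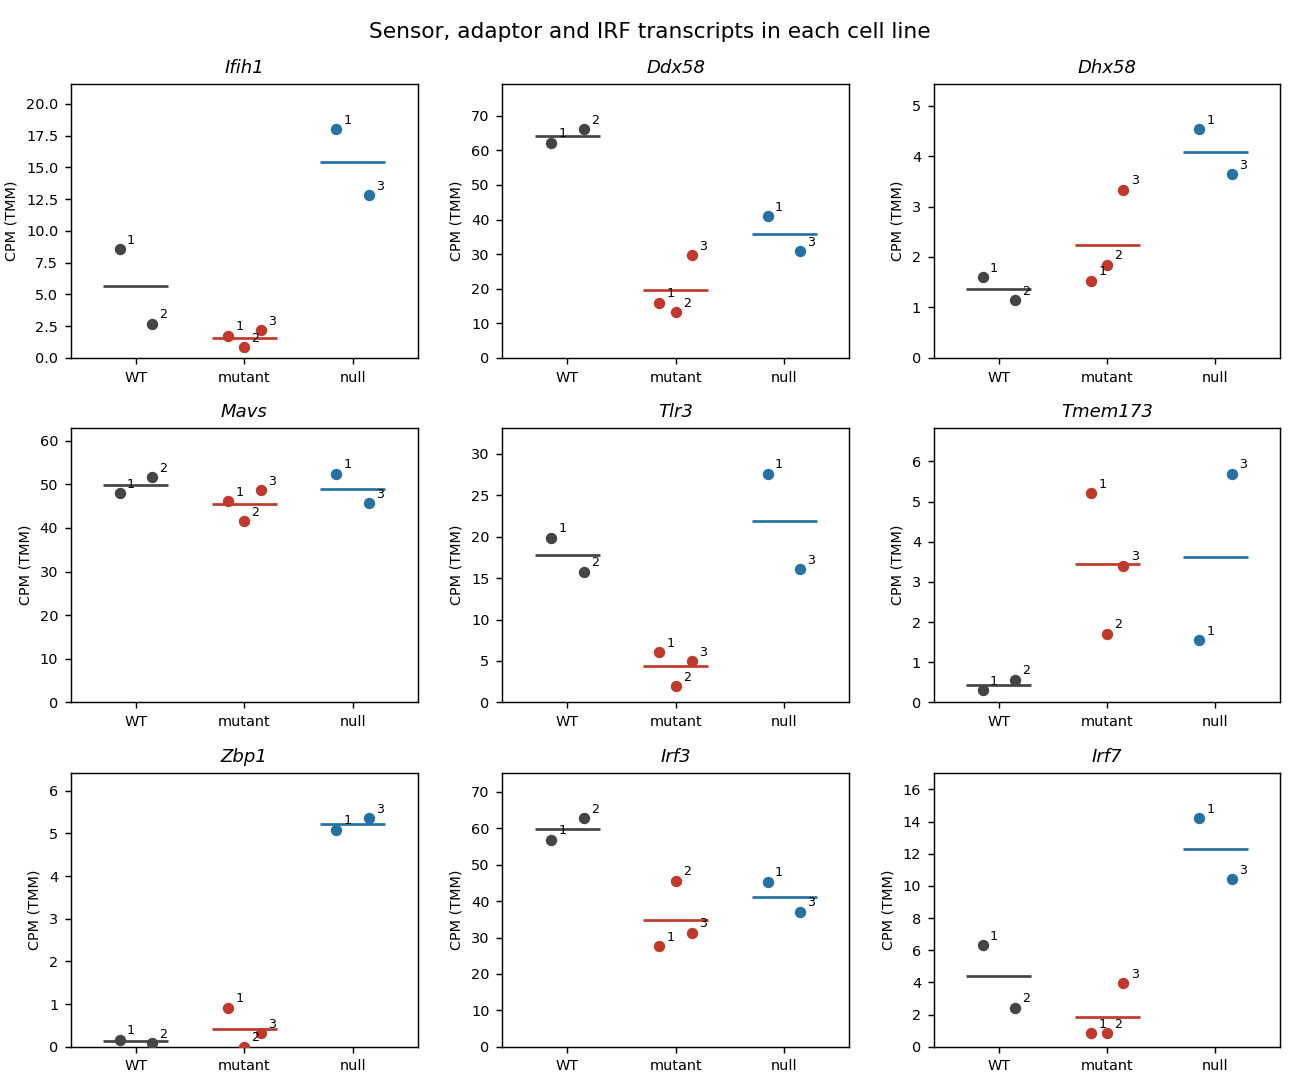
TMM-normalized CPM (vertical axis, linear, from 0) of the 9 genes in each cell line, with the line's number beside its point and the group mean as a bar. Mavs lies between 41.6 and 52.4 CPM in all 7 lines, Tlr3 is lowest in the 3 mutant lines, and Zbp1 exceeds 5 CPM in the null lines.

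Across the lines the 9 genes took several courses. Mavs was nearly level across the lines, Irf3 and Ddx58 were highest in WT, Tlr3 was lowest in mutant lines, Tmem173 was lowest in WT, and Ifih1, Irf7, Zbp1 and Dhx58 were highest in null lines. Null 1 had the highest CPM of the 7 libraries for 5 of the 9 genes and null 3 for 2, whereas mutant 2 had the lowest for 6. Mutant 2 had few fibroblast markers (9.73 CPM) and so did null 1 (8.03 CPM).

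Between genes, levels were compared per length, as CPM per kilobase of exon in the GENCODE M21 annotation. Mavs (12.4 to 15.7 over the 7 lines) and Irf3 (8.02 to 18.2) stood highest on this scale, followed by Ddx58 (1.88 to 9.37) and Tlr3 (0.374 to 5.31). The other 5 genes stayed at or below 3.76, the level of Irf7 in null 1. The ranges of neighbours in this order overlapped, Mavs and Irf3 among them. Within WT the mean was 17.4 for Irf3, 14.9 for Mavs, 9.1 for Ddx58, 3.42 for Tlr3, 1.16 for Irf7, 0.689 for Ifih1, 0.418 for Dhx58, 0.16 for Tmem173 and 0.0356 for Zbp1.

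Ddx58, the RIG-I helicase, was the member that passed the test in mutant against WT. It stood at 62.2 and 66.1 CPM in WT 1 and 2, at 16.0, 13.2 and 29.7 CPM in mutant 1, 2 and 3, and at 40.9 and 30.8 CPM in null 1 and 3. The 3 groups did not overlap, with WT above null and null above mutant. Ddx58 fell from 64.2 ± 2.74 CPM in WT (SD, n = 2) to 19.7 ± 8.81 CPM in mutant lines (n = 3). On the log2 scale the fold change was -1.71 (SE 0.355, adjusted p = 0.0418). The call was lost when any 1 of the 5 libraries compared was left out, with adjusted p = 0.156 without WT 1, 0.241 without WT 2, 0.0606 without mutant 1, 0.0854 without mutant 2 and 0.0725 without mutant 3, while the log2 fold change stayed between -2.15 and -1.51. Null lines were at 35.8 ± 7.1 CPM (n = 2), with a log2 fold change against WT of -0.84 (SE 0.396, adjusted p = 0.286).

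Ifih1, the MDA5 helicase, ran the other way in null lines. Its levels were 8.57 and 2.68 CPM in WT 1 and 2, 1.75, 0.831 and 2.18 CPM in mutant 1, 2 and 3, and 18.0 and 12.8 CPM in null 1 and 3. Each mutant line lay below both WT lines and both null lines lay above them, although WT 1 and WT 2 themselves differed 3.2-fold. The log2 fold change was -1.83 (SE 0.619, adjusted p = 0.108) in mutant against WT and 1.44 (SE 0.693, adjusted p = 0.29) in null against WT. Between mutant and null lines the log2 difference was -3.27 (SE 0.636, adjusted p = 0.258 by edgeR), and the group means stood 9.7-fold apart. DESeq2 gave this difference an adjusted p of 0.000185. Without WT 1, the mutant-to-WT log2 fold change of Ifih1 shrank to -0.74, and that of null against WT was 2.52, or 0.84 without WT 2.

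Set against each other within a library, the 2 signalling helicases kept different proportions. Per kilobase of exon, Ddx58 exceeded Ifih1 8.41-fold and 28.6-fold in WT 1 and 2, and 10.6-fold, 18.5-fold and 15.8-fold in the 3 mutant lines, in order of their number. For null 1 and null 3 the ratios were 2.63 and 2.79. Both null lines thus lay below the other 5 lines, while WT and mutant lines overlapped. These ratios are a description of each line and were not tested.

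Dhx58, the LGP2 helicase, was scarce in every line. It was at 1.6 and 1.14 CPM in WT 1 and 2, 1.53, 1.85 and 3.33 CPM in mutant 1, 2 and 3, and 4.53 and 3.64 CPM in null 1 and 3, on 14 to 149 counts per library. Null lines were higher than all other lines, and mutant lines overlapped WT. Neither comparison with WT passed: the log2 fold change was 1.57 for null lines (SE 0.612, adjusted p = 0.226) and 0.7 for mutant lines (SE 0.558, adjusted p = 0.423).

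Tlr3, the endosomal sensor of double-stranded RNA, was low in all mutant lines. It was at 19.9 and 15.8 CPM in WT 1 and 2, 6.08, 1.95 and 5.0 CPM in mutant 1, 2 and 3, and 27.6 and 16.1 CPM in null 1 and 3. The highest mutant line was below the lowest line of either other group, and WT and null lines overlapped. The mean of mutant lines was 4.34 ± 2.14 CPM (SD, n = 3) and that of WT was 17.8 ± 2.93 CPM (n = 2). Their log2 fold change, -2.04 (SE 0.506), narrowly missed the threshold (adjusted p = 0.0588). Against null lines the log2 fold change was -2.33 (SE 0.508, adjusted p = 0.264). With no low-count filter, with the newer form of the quasi-likelihood fit and in DESeq2, Tlr3 passed in mutant against WT (adjusted p = 0.0473, 0.0482 and 0.00227). It did not pass in the other alternative settings, limma-voom among them (adjusted p = 0.0512 to 0.137), or by edgeR without any 1 mutant line (0.0513 to 0.138). Nor did it pass without WT 1 or without WT 2 (log2 fold change -1.85 and -2.19), fits that leave only the other WT line. Over the fits without 1 library the log2 fold change ran from -2.37 to -1.71.

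Zbp1, the sensor of Z-form nucleic acid, was near zero outside the null lines. It had 5 and 1 counts in WT 1 and 2, 45, 0 and 14 counts in mutant 1, 2 and 3, and 167 and 141 counts in null 1 and 3. In CPM the null lines stood at 5.08 and 5.35, and the highest of the other 5 libraries, mutant 1, at 0.915. The 0 counts in mutant 2 allow a level of up to 3 counts in that library, by counting error alone. The log2 fold change in null against WT was 5.26 (SE 1.84, adjusted p = 0.197) by edgeR, and DESeq2 gave adjusted p = 0.0236. The WT level rests on 6 counts over both libraries, so the size of this ratio is poorly fixed. Between mutant and null lines the log2 fold change was -3.64 (SE 1.4, adjusted p = 0.331). In this comparison mutant lines were all below null lines, while mutant and WT lines overlapped. Of the necroptosis kinase Ripk3 and its substrate Mlkl, through which Zbp1 can act, Mlkl averaged 71.8 CPM in WT and 32.3 CPM in null lines (adjusted p = 0.128). Ripk3 stood at 14.4 and 34.5 CPM in null 1 and 3 against 18.0 and 33.3 CPM in WT 1 and 2.

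Among the adaptors, Mavs, the platform for both RNA helicases, was the steadiest of the 9 genes. It was at 47.9 and 51.6 CPM in WT 1 and 2, 46.1, 41.6 and 48.7 CPM in mutant 1, 2 and 3, and 52.4 and 45.6 CPM in null 1 and 3. The highest line was 1.26-fold above the lowest and all groups overlapped. The log2 fold change was -0.13 (SE 0.159, adjusted p = 0.602) in mutant against WT and -0.02 (SE 0.175, adjusted p = 0.954) in null against WT.

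Tmem173, which encodes STING, was barely detected in WT. It had 9 and 7 counts in WT 1 and 2, or 0.306 and 0.568 CPM, and stood at 5.21, 1.71 and 3.4 CPM in mutant 1, 2 and 3 and at 1.55 and 5.69 CPM in null 1 and 3. All 5 lines with the 4NQO label exceeded both WT lines, and mutant and null lines overlapped. Log2 fold changes were 3.0 (SE 0.888, adjusted p = 0.0835) in mutant against WT and 3.07 (SE 0.926, adjusted p = 0.161) in null against WT, and DESeq2 passed both (adjusted p = 0.00981 and 0.0271). Without null 3, the null value was 1.85. The 3 lines with the most Tmem173 were mutant 1, mutant 3 and null 3, the same 3 whose fibroblast markers summed to 376 CPM or more, and the part of those markers in the Tmem173 level was not tested. Mutant 2 and null 1, where fibroblast markers were at 9.73 and 8.03 CPM, had 1.71 and 1.55 CPM of Tmem173. These were the lowest of the 5 lines with the 4NQO label, and both lay above the 2 WT lines. The DNA sensor upstream of it, Mb21d1 (cGAS), ranged from 5.03 to 9.91 CPM in WT lines, from 6.86 to 14.3 CPM in mutant lines and from 9.38 to 10.9 CPM in null lines.

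**Figure D2:**
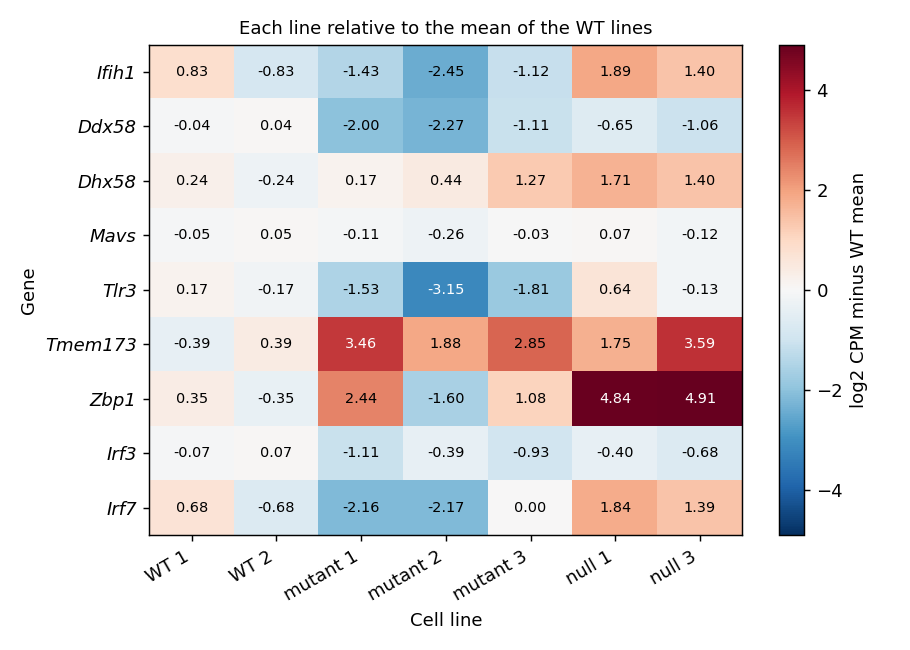
Difference in log2 CPM (prior count 2) between each cell line (columns) and the mean of the 2 WT lines, for the 9 genes (rows); red is higher and blue is lower. Tmem173 is at 1.75 or more in all 5 lines with the 4NQO label, Tlr3 at -1.53 or below in the mutant lines and Zbp1 at 4.84 and 4.91 in the null lines.

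Irf3, the constitutive factor, was at 56.8 and 62.7 CPM in WT 1 and 2, 27.6, 45.6 and 31.3 CPM in mutant 1, 2 and 3, and 45.3 and 37.1 CPM in null 1 and 3. All 5 lines with the 4NQO label were below both WT lines. Neither comparison passed, at -0.78 on the log2 scale for mutant lines (SE 0.248, adjusted p = 0.0961) and -0.53 for null lines (SE 0.276, adjusted p = 0.315). Mutant 2, the line lowest for most of the 9 genes, had the highest Irf3 of the mutant and null lines.

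Irf7, the interferon-induced factor, was at 6.33 and 2.44 CPM in WT 1 and 2, 0.834, 0.831 and 3.95 CPM in mutant 1, 2 and 3, and 14.2 and 10.4 CPM in null 1 and 3. Null lines exceeded every other line, while mutant 3 lay between the WT lines. The log2 fold change in null against WT was 1.48 (SE 0.919, adjusted p = 0.39) and in mutant against WT -1.23 (SE 0.815, adjusted p = 0.337). Single libraries moved both: the first was 2.34 without WT 1 and 0.95 without WT 2, and the second -0.37 without WT 1 and -2.42 without mutant 3. Mutant minus null was -2.72 on the log2 scale, with a null mean 6.58-fold the mutant mean (SE 0.827, adjusted p = 0.288 by edgeR and 0.0322 by DESeq2). Per kilobase of exon, Irf3 exceeded Irf7 9.86-fold and 28.2-fold in WT 1 and 2, and 36.3-fold, 60.3-fold and 8.7-fold in the 3 mutant lines, in order of their number. For null 1 and null 3 the ratios were 3.5 and 3.92. Null lines again lay below the other 5. They did not stand apart in the other 2 ratios computed. Ddx58 exceeded Dhx58 4.18-fold and 3.93-fold in null 1 and 3, within the 3.32-fold to 4.88-fold of mutant lines, and 18.1-fold and 27.0-fold in WT. Mavs exceeded Tmem173 27.7-fold and 6.57-fold in null 1 and 3, 7.25-fold to 19.9-fold in mutant lines and 128-fold and 74.5-fold in WT.

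**Figure D3:**
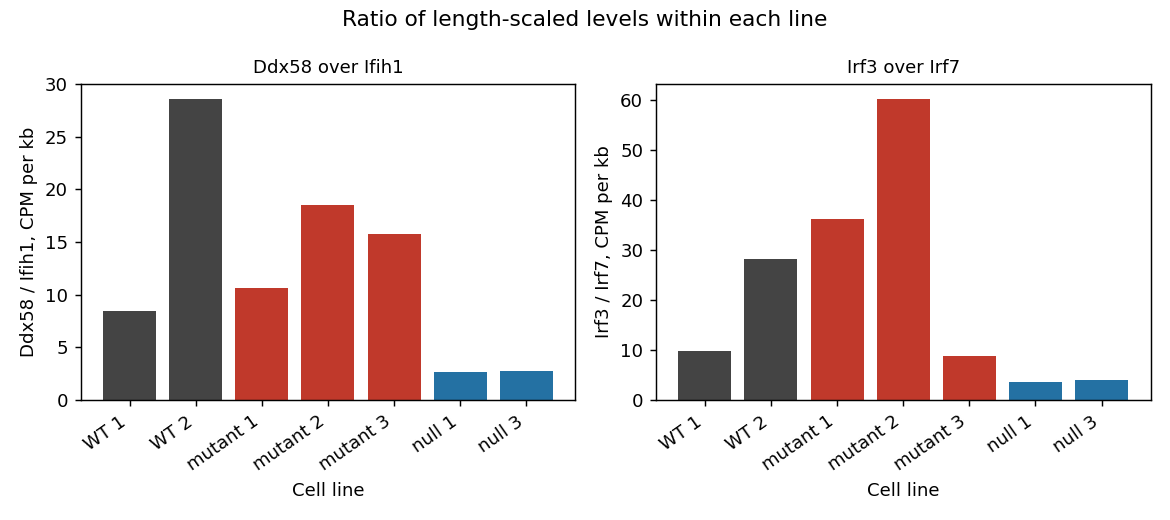
Ratio of length-scaled levels (CPM per kilobase of exon) of Ddx58 to Ifih1 (left) and of Irf3 to Irf7 (right) in each of the 7 cell lines, 1 bar per line. Both ratios are lowest in null 1 and null 3 (2.63 and 2.79 on the left, 3.5 and 3.92 on the right), and the WT and mutant lines overlap.

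The annotation places exons of 4 of the 9 genes on the opposite strand from exons of another gene, and whether the counting used strand is not given in the sources used here. Irf3 shares 88 exonic bases with Bcl2l12, which was at 6.27 to 9.61 CPM. Irf7 shares 45 with Phrf1, which had 88.6 to 133 CPM over the 7 lines, with means of 98.2 ± 13.7 CPM in null lines (SD, n = 2) and 104 ± 13.7 CPM in WT (n = 2). Dhx58 shares 141 bases with Dhx58os and Tlr3 shares 381 with Gm45542, neither of which is analysed here.

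Counted over the comparisons, edgeR called 1 of 9 genes lower and none higher in mutant against WT, where 7.42% of the 13768 genes tested were called and 4.13% were called lower. The median log2 fold change of the 9 was -0.78, against 0.08 over all genes. At an unadjusted p under 0.05 there were 5 of 9, against 30.5% of all genes. DESeq2 called 5 of the 9, Ifih1, Ddx58, Tlr3 and Irf3 lower and Tmem173 higher, and 23.2% of all genes, while limma-voom called Ddx58 and 5.40% of all genes. In 4 of the 9 (Ifih1, Ddx58, Tlr3 and Irf3) all mutant lines were below both WT lines and in 1 (Tmem173) above, against 25.7% and 26.9% of all genes.

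In null against WT edgeR called none of the 9 and 0.138% of all genes. At an unadjusted p under 0.05 there were 3 of the 9 and 20.2% of all genes, and DESeq2 called 2 of the 9 (Tmem173 and Zbp1) and 11.3% of all genes. From limma-voom there was no call among the 9 or among all genes. The median was 1.44, against 0.06 over all genes. In 5 of the 9 (Ifih1, Dhx58, Tmem173, Zbp1 and Irf7) both null lines were above both WT lines and in 2 (Ddx58 and Irf3) below, against 29.1% and 27.1% of all genes. The comparisons with WT share the 2 WT lines.

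Mutant and null lines share the 4NQO label, so their comparison does not set labelled against unlabelled lines. The p53 allele and other differences between the lines cannot be told apart in it. Here edgeR called none of the 9 and 0% of all genes. At an unadjusted p under 0.05 there were 5 of the 9 (Ifih1, Tlr3, Irf7, Zbp1 and Ddx58) and 14.0% of all genes, and DESeq2 called 3 (Ifih1, Tlr3 and Irf7) and 4.39% of all genes. Here too limma-voom called no gene. All 9 had a log2 fold change below 0, where 51.3% of all genes were above 0. Their median was -0.87 against 0.02 over all genes, though the values of Mavs (-0.11), Tmem173 (-0.07) and Irf3 (-0.24) were smaller than their SE. In 6 of the 9 all mutant lines were below both null lines and in none above, against 15.1% and 16.0% of all genes.

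**Figure D4:**
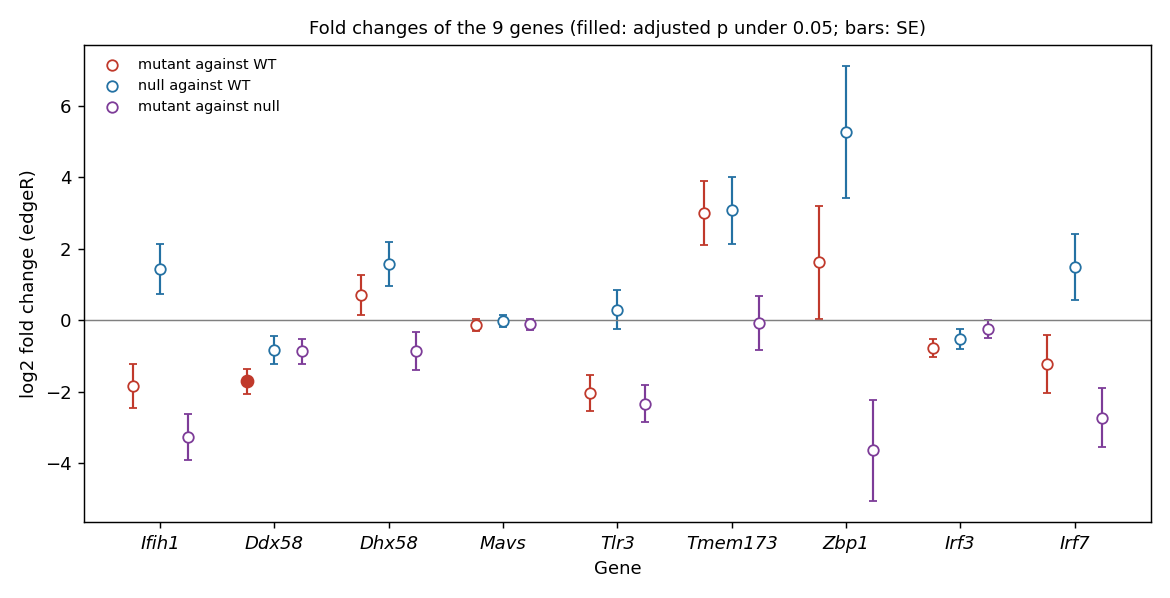
Log2 fold changes from edgeR (vertical axis) with their standard errors for the 9 genes in mutant against WT, null against WT and mutant against null. The filled point, Ddx58 in mutant against WT (-1.71), has an adjusted p under 0.05 and open points do not. In mutant against null 9 of 9 genes lie below 0, with Mavs, Tmem173 and Irf3 below it by less than their standard error.

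Of 24 other sensors, 20 were tested. Their log2 fold change was above 0 in 8 of 20 in mutant against WT, 14 of 20 in null against WT and 3 of 20 in mutant against null, against 54.4%, 53.6% and 51.3% of all genes. By edgeR, in mutant against WT 1 was called lower (4.13% of all genes were) and none higher, with a median log2 fold change of -0.51. That gene was Ifi204, a DNA-binding protein of the interferon-inducible p200 family, which fell from a mean of 47.1 CPM in WT to 18.7 CPM in mutant lines (log2 fold change -1.34, SE 0.29, adjusted p = 0.045). No gene of the list was called in null against WT (5 at an unadjusted p under 0.05, against 20.2% of all genes, median 0.51). Nor was any called in mutant against null (9 at an unadjusted p under 0.05, against 14.0% of all genes, median -1.38). The interferon-induced Oasl1 was at 0.943 and 9.0 CPM in null 1 and 3, with 1 count in WT (adjusted p = 0.106). Ddx60 was at 8.58 and 2.39 CPM in null 1 and 3, with 10 counts in WT (adjusted p = 0.129). DESeq2 called 2 genes of this list in mutant against WT, 5 in null against WT and 7 in mutant against null, and limma-voom 0 in each. Over all genes DESeq2 called 23.2%, 11.3% and 4.39% in the same order. Oas3, an enzyme that activates RNase L, was at 24.6 and 2.62 CPM in null 1 and 3 and at 0.0712 to 0.321 CPM in mutant lines (adjusted p = 0.264). In Oasl1, Ddx60 and Oas3 the null lines were themselves unlike. Aim2, a sensor of cytosolic DNA, was at 37.6 CPM in null 3, 12.2 CPM in mutant 3 and at most 4.11 CPM elsewhere. The endosomal receptors Tlr7, Tlr8 and Tlr9 had at most 4 counts in any library.

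Among 20 signalling adaptors and kinases, edgeR called 2 lower and none higher in mutant against WT. There DESeq2 called 4 lower and 2 higher (Unc93b1 and Tbkbp1) and limma-voom 2 lower. Over all genes edgeR called 7.42% (4.13% lower) in this comparison, DESeq2 23.2% and limma-voom 5.40%. In the other comparisons edgeR and limma-voom called none. In null against WT and mutant against null, 5 and 1 had an unadjusted p under 0.05 (20.2% and 14.0% of all genes). DESeq2 called 4 and 1 there (11.3% and 4.39% of all genes). Ikbke, the kinase IKK-epsilon that can phosphorylate Irf3 and Irf7, was at 169 and 258 CPM in WT 1 and 2, 10.7, 7.36 and 4.66 CPM in mutant 1, 2 and 3, and 32.5 and 12.5 CPM in null 1 and 3. It fell in mutant against WT (log2 fold change -4.81, SE 0.526, adjusted p = 0.0192), and in null against WT the value was -3.24 (SE 0.579, adjusted p = 0.0867). Its relative Tbk1 ranged from 46.5 to 76.0 CPM over the 7 lines. Mlkl fell from 71.8 to 30.2 CPM in mutant lines (adjusted p = 0.0384). Unc93b1, which carries Tlr3 to endosomes, was at 0.102 and 0.0812 CPM in WT 1 and 2, 12.0, 0.0712 and 5.87 CPM in mutant 1, 2 and 3, and 22.8 and 13.4 CPM in null 1 and 3; it was chosen after its values were seen.

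Of the other IRF genes, Irf1, a factor induced by interferon-gamma, was at 57.1 and 27.7 CPM in null 1 and 3 and 20.1 and 9.91 CPM in WT 1 and 2 (adjusted p = 0.212). The mutant lines had a mean of 22.4 CPM and overlapped the null lines (adjusted p = 0.426 in mutant against null).

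Nucleases and inhibitors of the pathway had no call in any comparison (4, 5 and 2 of 17 tested at an unadjusted p under 0.05 in mutant against WT, null against WT and mutant against null, where DESeq2 called 2, 2 and 1 and limma-voom 0). The deubiquitinase Tnfaip3 (A20) was at 25.1 CPM in mutant lines against 51.4 CPM in WT (adjusted p = 0.067), and the RNA editor Adar at 95.3 against 62.7 CPM (adjusted p = 0.08). Rnf125 was at 1.95 CPM in null lines and 0.0576 CPM in WT (adjusted p = 0.123). Usp18, an interferon-induced brake on its own receptor, was at 36.2 CPM in null lines and 2.56 CPM in mutant lines (adjusted p = 0.287).

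Interferon transcripts were not detectable at this depth beyond single counts. The 9 interferon genes listed, Ifnb1, Ifna1, Ifna2, Ifna4, Ifne, Ifnk, Ifnl2, Ifnl3 and Ifng, had at most 2 counts in any library and were not tested. Receptor and JAK-STAT genes were expressed throughout. In mutant against WT edgeR called 1 of 11, against 7.42% of all genes, and 1 had an unadjusted p under 0.05, against 30.5%. Tyk2, a kinase of the interferon receptors, fell from 52.7 to 28.6 CPM (log2 fold change -0.88, SE 0.15, adjusted p = 0.0299). Without WT 1, or without WT 2, edgeR called 0 genes in mutant against WT (2840 and 2207 had an unadjusted p under 0.05), so the calls of Ifi204, Ikbke, Mlkl and Tyk2, like that of Ddx58, need both WT lines. The receptor chain Ifnlr1 was at 30.7 and 13.8 CPM in null 1 and 3, 8.5 and 7.88 CPM in WT and 4.78 to 5.81 CPM in mutant lines (adjusted p = 0.156 in null against WT and 0.258 in mutant against null). By edgeR none was called in null against WT or in mutant against null. There 2 and 3 had an unadjusted p under 0.05, with 1 and 2 called by DESeq2 and 0 by limma-voom. Over all genes, 20.2% and 14.0% had an unadjusted p under 0.05 in these comparisons, and DESeq2 called 11.3% and 4.39%.

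Interferon targets are set here beside Ifih1, Irf7, Zbp1 and Dhx58, the members highest in null lines. Ddx58 was lower in null 1 and 3 (40.9 and 30.8 CPM) than in WT 1 and 2 (62.2 and 66.1 CPM), and Tlr3 overlapped between null and WT lines. A link between any member and these targets was not tested. The 20 target genes summed to 111 and 40.3 CPM in WT 1 and 2, 72.3, 71.2 and 157 CPM in mutant 1, 2 and 3, and 444 and 238 CPM in null 1 and 3. In null against WT 18 of 18 tested had a log2 fold change above 0 (53.6% of all genes did), with a median of 2.78, and edgeR and limma-voom called none (7 at an unadjusted p under 0.05, and 6 called by DESeq2). In mutant against null 1 of 18 was above 0 (51.3% of all genes), with a median of -2.31 and no call by edgeR or limma-voom (9 at an unadjusted p under 0.05, and 6 called by DESeq2). In mutant against WT 12 of 18 were above 0 (54.4% of all genes), with a median of 0.5. There edgeR and limma-voom called none, with 2 at an unadjusted p under 0.05 and 2 called by DESeq2. Over all genes, 20.2% had an unadjusted p under 0.05 in null against WT, 14.0% in mutant against null and 30.5% in mutant against WT. In that order DESeq2 called 11.3%, 4.39% and 23.2% of all genes. Xaf1 and Bst2, an apoptosis factor and a virus tether, were at 48.7 and 68.6 CPM in null lines and 4.55 and 10.7 CPM in WT (adjusted p = 0.124 and 0.128). WT 1 exceeded WT 2 in the summed targets, in Ifih1 and in Irf7. Mutant 3, the mutant line with the highest sum, also had the most Irf7, Ifih1 and Dhx58 of the mutant lines, whereas Zbp1 was highest in mutant 1 (0.915 CPM, against 0.321 CPM in mutant 3).

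The genes most like each member were found over the 7 lines as those with the smallest root mean square difference (in log2 CPM, each profile centred on its mean), for the 6 members that spanned more than 2 log2 units. For Ifih1 these were Entpd2 (0.502), Irf7 (0.518) and Lrrn4cl (0.523), and for Irf7 they were Ifih1 (0.518), H2-K2 (0.564) and Nup210 (0.575). Ddx58 was closest to Nsdhl (0.122), Rhbdf2 (0.17) and Mycl (0.209), and Tlr3 to Pcdh1 (0.274), Mapk13 (0.276) and Btc (0.304). Tmem173 was closest to Kcnab2 (0.396), Prickle1 (0.399) and Thbs3 (0.404), and Zbp1 to Mmp25 (0.651), H2-Q4 (0.831) and Fndc4 (0.861). Within the 9 genes, the profiles of Mavs and Irf3 (0.383) and of Ifih1 and Irf7 (0.518) were the closest pairs, and that of Ifih1 and Ddx58 was 1.209 apart.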

How the data were processed

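Per the labels' protocols, polyadenylated RNA was made into libraries with a stranded mRNA kit. The authors deposited unnormalized read counts, 1 row per gene name. The submitters' processing notes name STAR 2.5.1b and mm9; which counter, strand option and gene models were used is not given in the sources used here. The 92 spike-in names held 0 counts and were left out, and 27 date-like names were kept unnamed. No 2 lines of a group were repeats of 1 library (chi-square of 58.75 to 245.6 per degree of freedom).

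All 7 libraries entered one fit in edgeR 4.0.16 (R 4.3.3): TMM factors, the default filter by group, the quasi-likelihood F test and Benjamini-Hochberg adjustment over all 13768 genes, threshold 0.05. The common biological coefficient of variation was 0.485. Standard errors come from the fold change and F. CPM are TMM-normalized, mean ± SD. Exon lengths and overlaps are from GENCODE M21 (GRCm38), which is not the authors' build. DESeq2 1.42.0, limma-voom (limma 3.58.1), RLE factors, 2 other filters, the newer quasi-likelihood form, fits of only the groups compared, a replicate block, thinning to 12751118 counts and fits without 1 library at a time were alternatives. The fit was tested on simulated counts. The genes and lists were chosen with earlier results of these data known. Named genes outside the 9 were up to 4 called per list and comparison, otherwise the 2 of smallest p, the 3 genes nearest each member that spanned over 2 log2 units, and Trp53. Genes beyond that rule (Ripk3, Tbk1, Aim2, Unc93b1, Tbkbp1, the Tlr and interferon genes, Mb21d1, Trp63, Sox2, Krt4, Col3a1, Thy1, Lum, Myog, Myh11, Ptprc, Bcl2l12 and Phrf1) were named after their values were seen. One result of the lists is not reported here.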

Additional observations from a re-analysis of the deposited data

Results flagged for a closer look

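Ifih1 was set aside because its mutant and null lines lay on opposite sides of WT. All 3 mutant lines (0.831 to 2.18 CPM) were below both WT lines (2.68 and 8.57 CPM), and both null lines (12.8 and 18.0 CPM) were above them. Ifih1 was picked from these same values, which already place mutant below null lines. Mutant against null holds no WT line and does not test the sides of WT. In the comparisons with WT the log2 fold change by edgeR was -1.83 (adjusted p = 0.108) for mutant and 1.44 (adjusted p = 0.29) for null lines. In mutant against null it was -3.27, with an edgeR adjusted p of 0.258. Over the alternative settings on all libraries of both groups that adjusted p ran from 0.000185 in DESeq2 to 0.432, and the log2 fold change from -3.37 to -2.9. Without 1 library at a time the log2 fold change was -3.58 to -2.98 and the adjusted p 0.0971 to 0.75. The difference between WT 1 and WT 2 was itself 3.2-fold.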

How the results depend on the processing

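Of 363 repeats of a member's fold change under another setting, 336 kept direction and side of the threshold, 11 came to pass it, 6 ceased to pass and 10 turned sign. The 6 were Ddx58 in mutant against WT, 5 of them with a library left out. The 10 were Mavs in null against WT after thinning (0.03), without WT 2 (0.03) and without null 3 (0.07), Mavs in mutant against null without null 1 (0), Tlr3 in null against WT with the replicate block (-0.14) and without null 1 (-0.15), and Tmem173 in mutant against null in limma-voom (0.16), with the block (0.34), without mutant 2 (0.24) and without null 3 (1.15). Over the fits without 1 library, Mavs ran from -0.13 to 0.07 in null against WT and from -0.2 to 0 in mutant against null, Tlr3 in null against WT from -0.15 to 0.63, and Tmem173 in mutant against null from -0.72 to 1.15. The cause was not tested.

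In mutant against WT, 1022 genes and 1 member were called. DESeq2 called 3198 and 5, while no filter and the newer quasi-likelihood form each called 2 members. Without a library, 0 to 1420 genes and 0 members were called: 0 genes without WT 1 or WT 2 (2840 and 2207 at an unadjusted p under 0.05), 37 without mutant 2 and 6 without mutant 3. In null against WT, 19 genes were called, against 1549 in DESeq2 (with 2 members), 0 in limma-voom (2155 at an unadjusted p under 0.05), 77 with no filter, 55 in the newer form and 0 to 55 without a library (0 without WT 1, WT 2 or null 3, where 2147, 1126 and 2189 had an unadjusted p under 0.05; 55 without null 1). In mutant against null, 0 genes were called, against 604 in DESeq2 (with 3 members), 1 with RLE factors, 2 with no filter, 1 with the 5 CPM filter, 1 in the newer form and 0 to 22 without a library (22 without null 3). Dhx58 and Zbp1 did not pass the 5 CPM filter.

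Whether the numbers in the titles pair the lines was not settled. Same-numbered lines of different groups had deviations from their group means that correlated at -0.405 to 0.138. For differently numbered lines the correlations ran from -0.415 to 0.415. With 2 lines in WT and 2 in null, the deviations within each of these groups mirror each other. These correlations therefore cannot decide whether lines are paired. With the replicate block 0 genes and 0 members were called in mutant against WT, 0 genes in null against WT and 0 in mutant against null (unadjusted p under 0.05 in 2887, 1454 and 1492 genes), and the Ddx58 log2 fold change was -1.95 (adjusted p = 0.135). Depth limits Zbp1 (1 to 5 counts) and Tmem173 (7 and 9 counts) in WT.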
